A study of Caenorhabditis elegans with 12 samples.

Results

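The molting genes and cuticlins of Caenorhabditis elegans build, cross-link and shed the larval cuticle. They were taken here as the genes whose symbols begin with mlt-, mltn-, noah-, cut-, cutl- or fbn-, together with the regulators nhr-23 and nhr-25 and the receptor lrp-1, provided that the mean over all libraries was at least 10 normalized counts. The rule uses names and that minimum, and no comparison between groups. It gave 55 genes of the 14352 tested and of the 45327 listed: 6 cut, 26 cutl, 6 mlt, 11 mltn and 2 noah genes, fbn-1, nhr-23, nhr-25 and lrp-1. A further 5 genes with such symbols, cutl-2, cutl-7, cutl-13, mltn-2 and mltn-4, had means of 2.09 to 6.69 and were left out. RNA from whole worms at the larval L4 stage had been sequenced from the wild type strain N2 and from the mutant wrn-1(gk99), each grown from L1 larvae at 25°C on plates without addition or with 10 mM vitamin C given as sodium L-ascorbate. Each of the 4 groups had 3 libraries. The gk99 allele is a deletion within wrn-1, the worm ortholog of the human Werner syndrome helicase gene, in a strain that had been out-crossed to N2. All worms were staged under the microscope by the formation of vulva and gonad, the mutants developed more slowly and were harvested by stage and not by age, and the labels give no position within L4. The study describes the libraries as biological replicates, and the labels do not say what separated them, so the p-values measure the spread between these libraries.

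A larva replaces its collagen cuticle at each molt. The epidermis first lays down a temporary apical matrix made of zona pellucida (ZP) domain proteins, then secretes and cross-links new collagens and cuticlins under it, and proteases release the old cuticle. The nuclear hormone receptors NHR-23 and NHR-25 drive this program, and many of its mRNAs rise and fall once in each larval stage, with peaks at different points of the cycle. Cuticlins are the proteins of the cuticle that do not dissolve with the collagens, and several of them shape the lateral ridges called alae. In whole worms, fewer cells of a type and less RNA per cell cannot be told apart, and worms at different points of the cycle within 1 population cannot be told apart from a uniform change.

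1 library stood apart from its label. The library labelled N2 vitC replicate 3 correlated with the other N2 vitC libraries at r = 0.960 and 0.961 over all genes tested, while the lowest value among the other pairs of replicates was 0.992. Of the 55 genes, 52 (94.5%) lay closer in this library to the mean of vitamin C treated wrn-1(gk99) than to the N2 vitC replicates 1 and 2, as did 87.1% of all genes tested. The median absolute log2 difference of the 55 genes was 0.69 to its own replicates and 0.066 to the treated mutant. Calls that rest on it are therefore also given without it. Because the deletion leaves most of the gene, wrn-1 itself does not check the labels, and its level was 499 to 516 normalized counts in N2 and between 700 and 854 in the untreated mutant, with 407, 380 and 614 in N2 vitC replicates 1 to 3 and 648 to 835 in the treated mutant. The libraries held 13446257 to 34234211 reads on genes (median 20136361). 1 read was worth 0.564 to 1.38 normalized counts, so the members of lowest level rested on few reads.

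cut-1 dominated the set. This cuticlin alone made up 1.03% to 1.06% of all normalized counts in untreated N2 and 0.243% to 0.248% in untreated wrn-1(gk99). All 55 genes together made up 1.51% to 1.56% in N2 and 0.747% to 0.802% in wrn-1(gk99). Per kilobase of exon, the mean level over the 12 libraries was 79687 normalized counts for cut-1, followed by mlt-8 with 8288, cut-2 with 5640, noah-2 with 4689, mlt-9 with 4610 and cut-6 with 4605. The group with the highest mean was N2 vitC for 27 of the 55 genes, N2 for 15, wrn-1(gk99) for 12 and wrn-1(gk99) vitC for 1. The group with the lowest mean was untreated wrn-1(gk99) for 23 genes. The genes lay on all 6 chromosomes in the WBcel235 annotation, with 16 on chromosome II, 11 on V, 8 each on I and X, 7 on IV and 5 on III.

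**Figure D1:**
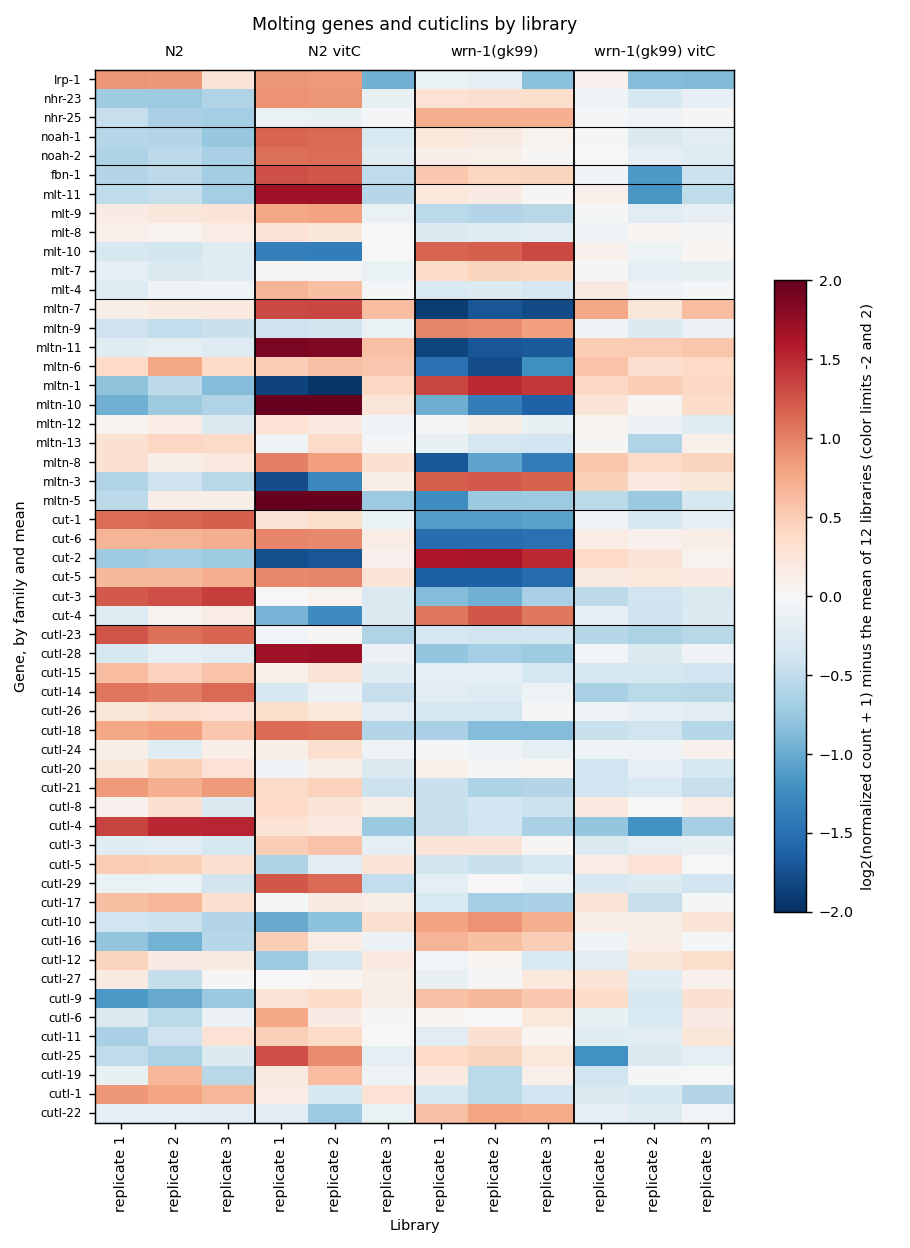
Color gives log2(normalized count + 1) minus the gene's mean over the 12 libraries for all 55 genes (rows, by family and then by mean) in each library (columns, 3 per group). The column of N2 vitC replicate 3 looks like the 3 treated wrn-1(gk99) columns and not like N2 vitC replicates 1 and 2, and the 3 untreated wrn-1(gk99) columns are blue for cut-1, cut-3, cut-5, cut-6, mltn-6, mltn-7, mltn-8 and mltn-11.

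Each gene was tested with limma on log2(normalized count + 1), and was called when the Benjamini-Hochberg adjusted p over all genes tested was under 0.01, the group means differed by a factor of 2 or more, and the mean of a group compared was above the minimum level of normalized counts that the study set for a changed gene. Between untreated strains limma called 23 of the 55 genes, with 9 above and 14 below N2 in the mutant, where 10.8% of all genes tested were called (4.24% higher and 6.57% lower). In the fit without N2 vitC replicate 3 the count was 25, with 10 above and 15 below, where 4.34% of all genes tested were higher and 6.67% lower. The median log2 fold change was -0.27 over the 55 genes and 0.01 over all genes tested. Scaling the libraries to equal totals moved the median of all genes tested to 0.17, the count of members to 10 above and 12 below and the background to 5.91% higher and 4.93% lower, so that these directions hold relative to the median gene. Vitamin C in wrn-1(gk99) changed 9 genes, 6 higher and 3 lower, where the background was 1.8% (1.32% and 0.481%). They were cut-5, cut-6, mltn-6, mltn-7, mltn-8 and mltn-11 on the higher side and cut-4, mlt-10 and mltn-9 on the lower side. Without N2 vitC replicate 3 in the fit 11 were called, 7 higher and 4 lower, beside 2.47% (1.47% and 0.996%). Vitamin C in N2 also changed 9 genes, 5 higher and 4 lower, where the background was 2.49% (1.16% and 1.34%). Without N2 vitC replicate 3 that count was 19, with 11 higher and 8 lower, beside a background of 4.59% (2.59% and 2.01%). With only the N2 libraries in the fit it was 3, all lower, with every higher call lost, and the background was 0.906% (0.188% higher and 0.718% lower). With all libraries scaled to equal totals it was 11, with 7 higher and 4 lower, beside 2.77% (1.79% and 0.975%). The groups did not overlap for 49 of the 55 genes between untreated strains (75.8% of all genes tested), 39 with vitamin C in wrn-1(gk99) (50.7%) and 29 with vitamin C in N2 (32.8%). In the fit of all libraries, 27 genes were called in no comparison and in no test of the interaction described below. Of these, 9 had no group mean above the minimum level and could not be called.

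Of the regulators of the molting program, nhr-25 rose in the untreated mutant. nhr-23 was higher there in every library, without a call in the fit of all libraries at the deposited scale. nhr-25 (F11C1.6, chromosome X, 11 exons), a receptor of the FTZ-F1 class needed for molting and for epidermal development, stood at 309, 269 and 264 normalized counts in N2 and at 704, 706 and 699 in wrn-1(gk99). The groups were far apart, and the increase was 2.5-fold (log2 1.32, SE 0.08, limma adjusted p = 1.52e-07). With vitamin C it was 414, 402 and 433 in the mutant and 389, 384 and 415 in N2. The treated strains overlapped through N2 vitC replicate 3 alone, and replicates 1 and 2 lay below all treated mutant libraries. The log2 difference with vitamin C was -0.76 in wrn-1(gk99) (SE 0.08, limma adjusted p = 6.01e-05) and 0.50 in N2 (SE 0.08, adjusted p = 0.00104, and 0.46 without replicate 3), neither past the fold needed for a call.

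nhr-23 (C01H6.5, chromosome I, 9 exons), which is related to the vertebrate ROR receptors and is required at every larval molt, followed another order. It stood at 643, 634 and 694 in N2, at 1956, 1947 and 951 in N2 vitC, at 1283, 1313 and 1342 in wrn-1(gk99) and at 1006, 840 and 939 in treated wrn-1(gk99). The highest values were those of N2 vitC replicates 1 and 2, and replicate 3 lay within the range of the treated mutant. The difference between untreated strains was log2 1.00 (SE 0.22, limma adjusted p = 0.002) with a ratio of means just under the limit of 2. It was called with the libraries scaled to equal totals (log2 1.16, limma adjusted p = 0.000281). Calls were also made with equal upper quartiles (log2 1.00), without N2 replicate 3 (log2 1.04) and without wrn-1(gk99) replicate 1 (log2 1.01). The increase with vitamin C in N2 was 2.46-fold (log2 1.22, SE 0.22, limma adjusted p = 0.00177) and was 2.97-fold without replicate 3 (log2 1.57, SE 0.07, adjusted p = 1.8e-10). With only the N2 libraries in the fit the adjusted p was 0.0382. In the mutant, vitamin C gave values below those of untreated worms in all 3 libraries, without a call (log2 -0.50, SE 0.22, adjusted p = 0.134).

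The group means of noah-1 and noah-2 stood in the same order as those of nhr-23. Both genes encode ZP domain proteins related to Drosophila NompA that line the forming cuticle. noah-1 (C34G6.6, chromosome I, 8 exons) had 8843, 8708 and 7763 normalized counts in N2, 29472, 28845 and 10606 in N2 vitC, 15200, 14876 and 13833 in wrn-1(gk99) and 12972, 10772 and 11163 in treated wrn-1(gk99). noah-2 (F52B11.3, chromosome IV, 5 exons) had 7225, 7675 and 7033 in N2, 23732, 23971 and 9393 in N2 vitC, 12063, 11853 and 11288 in wrn-1(gk99) and 11092, 9679 and 9368 in treated wrn-1(gk99). For both genes N2 vitC replicates 1 and 2 were above every other library, and replicate 3 was not. The change with vitamin C in N2 was 2.72-fold for noah-1 (log2 1.30, SE 0.30, limma adjusted p = 0.00787) and 2.6-fold for noah-2 (log2 1.26, SE 0.27, adjusted p = 0.00599). Without replicate 3 it was 3.46-fold (log2 1.79, SE 0.08, adjusted p = 1.72e-10) and 3.26-fold (log2 1.71, SE 0.07, adjusted p = 7.45e-11). Leaving out any other N2 or N2 vitC library ended both calls, with log2 values of 1.05 to 1.34 for noah-1 and 1.03 to 1.29 for noah-2. Between untreated strains both were higher in the mutant in every library, by log2 0.80 (SE 0.30) and 0.68 (SE 0.27), without a call.

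**Figure D2:**
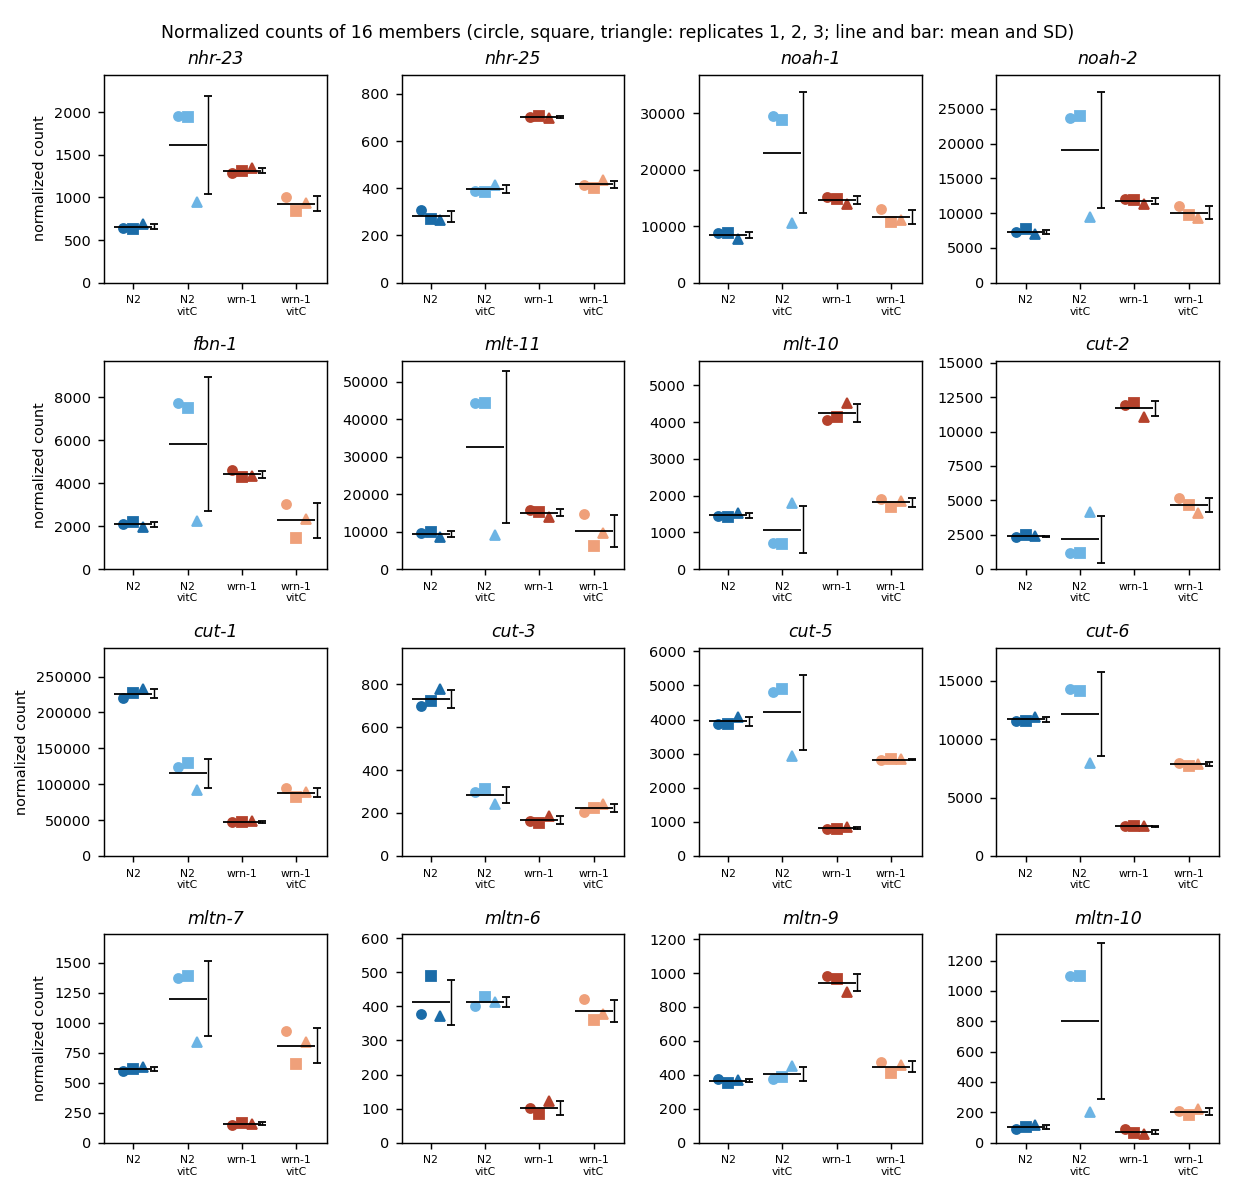
Normalized counts (linear axes from 0) of 16 genes in each library by group, where wrn-1 stands for wrn-1(gk99), points are replicates 1, 2 and 3 (circle, square, triangle), lines are group means and bars are SD (n = 3). In N2 vitC the triangle of nhr-23, noah-1, noah-2, fbn-1, mlt-11, mlt-10, cut-2 and mltn-10 lies away from the circle and the square and near the treated mutant.

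fbn-1 (ZK783.1, chromosome III, 25 exons) encodes a fibrillin-like protein with EGF repeats and a ZP domain that holds the epidermis together under the strain of the molt. It had 2110, 2191 and 1955 normalized counts in N2, 7734, 7472 and 2219 in N2 vitC, 4610, 4281 and 4322 in wrn-1(gk99) and 3029, 1434 and 2346 in treated wrn-1(gk99). Untreated wrn-1(gk99) lay above all N2 libraries, by log2 1.08 (SE 0.40, limma adjusted p = 0.0349), which was not a call. It was called in the fit without N2 vitC replicate 3 (SE 0.17, adjusted p = 5.08e-05) and with the untreated groups alone. The difference with vitamin C in N2, log2 1.28 (SE 0.40), was likewise called without that library, at 3.65-fold (log2 1.87, SE 0.19, adjusted p = 1.51e-06).

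The mlt genes were found through larvae that fail to shed the old cuticle. mlt-10 (C09E8.3, chromosome II, 8 exons), the proline-rich protein of the epidermis after which the mltn genes are named, was the one mlt gene called between untreated strains. It had 1445, 1410 and 1538 normalized counts in N2 and 4067, 4132 and 4526 in wrn-1(gk99), a 2.9-fold increase (log2 1.53, SE 0.28, limma adjusted p = 0.000612). With vitamin C it had 1916, 1682 and 1855 in the mutant, all above N2 and far below the untreated mutant, a 2.33-fold decrease (log2 -1.22, SE 0.28, adjusted p = 0.00893). That call rested near its threshold and was lost under 11 alternatives, among them each of the 6 wrn-1(gk99) libraries left out (log2 -1.26 to -1.17, adjusted p 0.0248 to 0.0391). In N2 vitC it had 702, 696 and 1807, which is a 2.1-fold decrease without replicate 3 (log2 -1.06, SE 0.07, adjusted p = 5.09e-09) and no call with it.

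mlt-11 (W01F3.3, chromosome V, 16 exons) encodes a secreted protein with Kunitz-type protease inhibitor domains. It had 9673, 9912 and 8521 normalized counts in N2, 44355, 44338 and 9231 in N2 vitC, 15888, 15326 and 13958 in wrn-1(gk99) and 14637, 6122 and 9611 in treated wrn-1(gk99). Replicates 1 and 2 of N2 vitC were 4.73-fold above N2 (log2 2.25, SE 0.22, limma adjusted p = 1e-06 without replicate 3), and replicate 3 lay within the N2 range, so that limma made no call with it (log2 1.49, SE 0.50, adjusted p = 0.0486). Other genes are annotated over exons of mlt-11 and of mlt-10 on the same strand, so their counts are less certain.

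The other mlt genes moved less. mlt-7 encodes a heme peroxidase that cross-links cuticle proteins, and its level was 1322, 1217 and 1258 in N2 and 1929, 2036 and 2018 in wrn-1(gk99), a separation of log2 0.66 (SE 0.07, limma adjusted p = 1.11e-05) that stayed under the fold needed. With vitamin C it was 1448, 1306 and 1342 in the mutant, below the untreated mutant by log2 0.55 (SE 0.07, adjusted p = 0.000197). mlt-8, a gene needed for complete shedding, lay between 7513 and 10979 in all 12 libraries and differed by 1.34-fold at most between group means. mlt-9, also needed for shedding, had 10317, 10695 and 10985 in N2, 15606, 16083 and 8383 in N2 vitC, 6327, 6075 and 6231 in wrn-1(gk99) and 9000, 7812 and 8212 in treated wrn-1(gk99). Its untreated strains differed by log2 -0.78 (SE 0.19, adjusted p = 0.00437), in the direction opposite to mlt-7 and mlt-10 and with no call. mlt-4, which encodes an ankyrin repeat protein, was highest in N2 vitC replicates 1 and 2 with 582 and 549 and had 287 to 409 in the other 10 libraries.

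lrp-1 (F29D11.1, chromosome I, 27 exons) encodes the megalin-related receptor at the apical surface of the epidermis that takes up sterols. It had 31284, 30991 and 20300 normalized counts in N2, 31288, 30451 and 8724 in N2 vitC, 15412, 15150 and 9481 in wrn-1(gk99) and 18048, 9279 and 9218 in treated wrn-1(gk99). The untreated strains did not overlap and differed by log2 -1.05 (SE 0.44, limma adjusted p = 0.0601), which was not a call. It was called without N2 vitC replicate 3 (SE 0.24, adjusted p = 0.00106) and with the untreated groups alone. Within both untreated groups replicate 3 was the lowest. lrp-1, mlt-11 and fbn-1 are the longest of the 55 genes, with 14711, 9796 and 9554 bases of exon. The deviation of lrp-1 from its group mean had the sign of that of long genes as a class in every library. mlt-11 and fbn-1 went the other way in treated wrn-1(gk99) replicate 3 (log2 0.01 and 0.11, class -0.02). fbn-1 also did in untreated wrn-1(gk99) replicate 2 (log2 -0.04, class 0.03). For the 380 genes with at least 5 kb of exon, the median log2 deviation from the group mean was -0.10 in N2 replicate 3 and -0.08 in wrn-1(gk99) replicate 3, 0.17, 0.17 and -0.34 in N2 vitC replicates 1 to 3, and 0.29, -0.27 and -0.02 in treated wrn-1(gk99). For lrp-1 it was 0.63, 0.59 and -1.22 in N2 vitC and 0.64, -0.32 and -0.33 in treated wrn-1(gk99). The part of transcript length in these values was not tested.

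**Figure D3:**
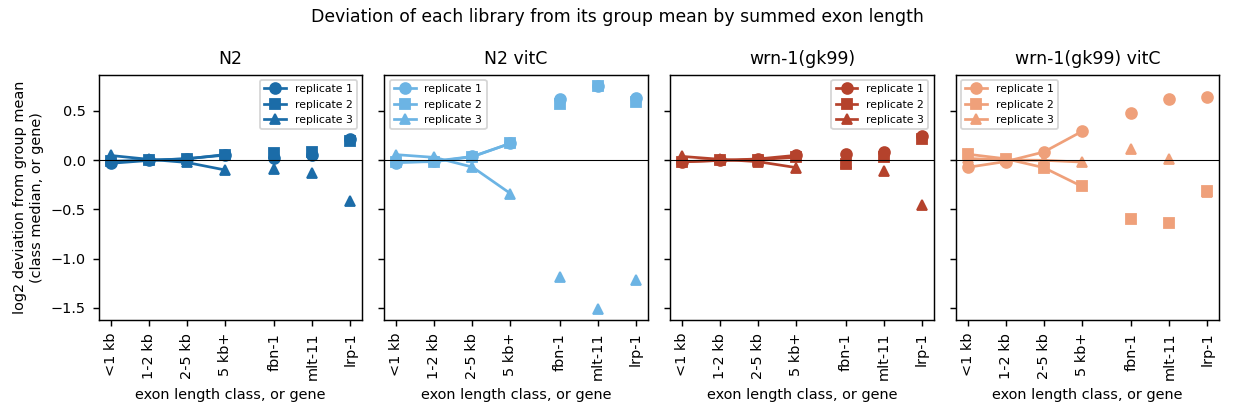
Median log2 deviation of each library from its group mean for genes in 4 classes of summed exon length (lines), and the deviation of fbn-1, mlt-11 and lrp-1 alone (points), for each group. In N2 vitC the class of 5 kb and over lies at 0.17, 0.17 and -0.34 for replicates 1, 2 and 3, and the 3 long genes deviate further in the same directions.

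All 6 cut genes were called between untreated strains, with 4 lower in the mutant and 2 higher. The background there was 10.8% of all genes tested (4.24% higher and 6.57% lower). cut-1 (C47G2.1, chromosome II, 4 exons), a ZP domain cuticlin of the dauer alae, had 220217, 226882 and 232156 normalized counts in N2 and 46929, 46747 and 48453 in wrn-1(gk99). This 4.78-fold decrease (log2 -2.26, SE 0.13, limma adjusted p = 8.07e-08) was called under every alternative. cut-5 (R07E3.3, chromosome X, 10 exons), which shapes the alae of L1 and dauer larvae, had 3881, 3863 and 4086 in N2 and 800, 799 and 849 in wrn-1(gk99), a 4.83-fold decrease (log2 -2.27, SE 0.15, adjusted p = 3.13e-07). cut-6 (M142.2, chromosome III, 8 exons), a cuticlin of the dauer cuticle, had 11553, 11575 and 11919 in N2 and 2523, 2521 and 2563 in wrn-1(gk99), a 4.61-fold decrease (log2 -2.20, SE 0.17, adjusted p = 1e-06). cut-3 (F22B5.3, chromosome II, 4 exons), needed for the L1 alae, had 697, 723 and 776 in N2 and 161, 151 and 188 in wrn-1(gk99), a 4.39-fold decrease (log2 -2.13, SE 0.12, adjusted p = 8.13e-08). In each of these genes the replicates of each untreated group lay close together, and the untreated strains were separated by several times their spread. Replicates 1 and 2 of both untreated groups differed little beyond counting error. Their spread may therefore understate that between worm populations.

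cut-2 and cut-4 went the other way. cut-2 (F53F1.5, chromosome V, 2 exons) encodes a cuticlin without a ZP domain that can be cross-linked through tyrosines. Its level was 2359, 2451 and 2390 in N2 and 11926, 12086 and 11042 in wrn-1(gk99), a 4.87-fold increase (log2 2.28, SE 0.36, limma adjusted p = 0.000262). cut-4 (E04D5.3, chromosome II, 7 exons) had 136, 170 and 179 in N2 and 343, 385 and 337 in wrn-1(gk99), a 2.2-fold increase (log2 1.14, SE 0.21, adjusted p = 0.000681).

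Vitamin C in the mutant changed cut-4, cut-5 and cut-6, each in the direction of untreated N2, and the other 3 cut genes were not called. With vitamin C, wrn-1(gk99) had 2803, 2847 and 2830 normalized counts of cut-5, a 3.46-fold increase over the untreated mutant (log2 1.79, SE 0.15, limma adjusted p = 1.17e-05). It had 7992, 7658 and 7907 of cut-6, a 3.1-fold increase (log2 1.63, SE 0.17, adjusted p = 5.64e-05). cut-4 decreased 2.68-fold to 143, 122 and 133 (log2 -1.41, SE 0.21, adjusted p = 0.000597), with 2 of 3 libraries below all untreated N2 libraries. cut-1 reached 94439, 81451 and 88527, a ratio of 1.86 that was under the fold needed (log2 0.89, SE 0.13, adjusted p = 0.00045). cut-3 reached 205, 224 and 242, log2 0.42 above the untreated mutant and still 3.27-fold below untreated N2 (log2 -1.71, SE 0.12, adjusted p = 2.53e-06). cut-1 was 2.57-fold below untreated N2 (log2 -1.36, SE 0.13, adjusted p = 1.47e-05). cut-2 had 5167, 4692 and 4109 in the treated mutant, 2.51-fold lower than untreated, which was called in the fit without N2 vitC replicate 3 (log2 -1.33, SE 0.07, adjusted p = 7.2e-10) and with the mutant groups alone, and not in the fit of all libraries (SE 0.36, adjusted p = 0.0234). These comparisons share the untreated mutant or untreated N2 samples and are not independent of each other.

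In N2, vitamin C gave another picture for the same genes. cut-3 fell to 299, 312 and 243 normalized counts, 2.57-fold (log2 -1.37, SE 0.12, limma adjusted p = 1.48e-05), and was 2.4-fold lower without replicate 3 (log2 -1.26). cut-1 had 123618, 129665 and 92408 with vitamin C, a ratio of 1.96 below untreated N2 that was under the fold needed (log2 -0.99, SE 0.13, adjusted p = 0.000213, and log2 -0.84 without replicate 3). cut-5 had 4811, 4883 and 2942 and cut-6 had 14254, 14126 and 7966, where replicates 1 and 2 lay above and replicate 3 below all untreated N2 libraries. cut-2 had 1158, 1198 and 4157, below untreated N2 in 2 libraries and above it in replicate 3. Without replicate 3, cut-2 was 2.04-fold lower with vitamin C (log2 -1.03, SE 0.08, adjusted p = 3.55e-08) and cut-4 was 2.13-fold lower (log2 -1.08, SE 0.14, adjusted p = 1.1e-05), neither called with it.

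**Figure D4:**
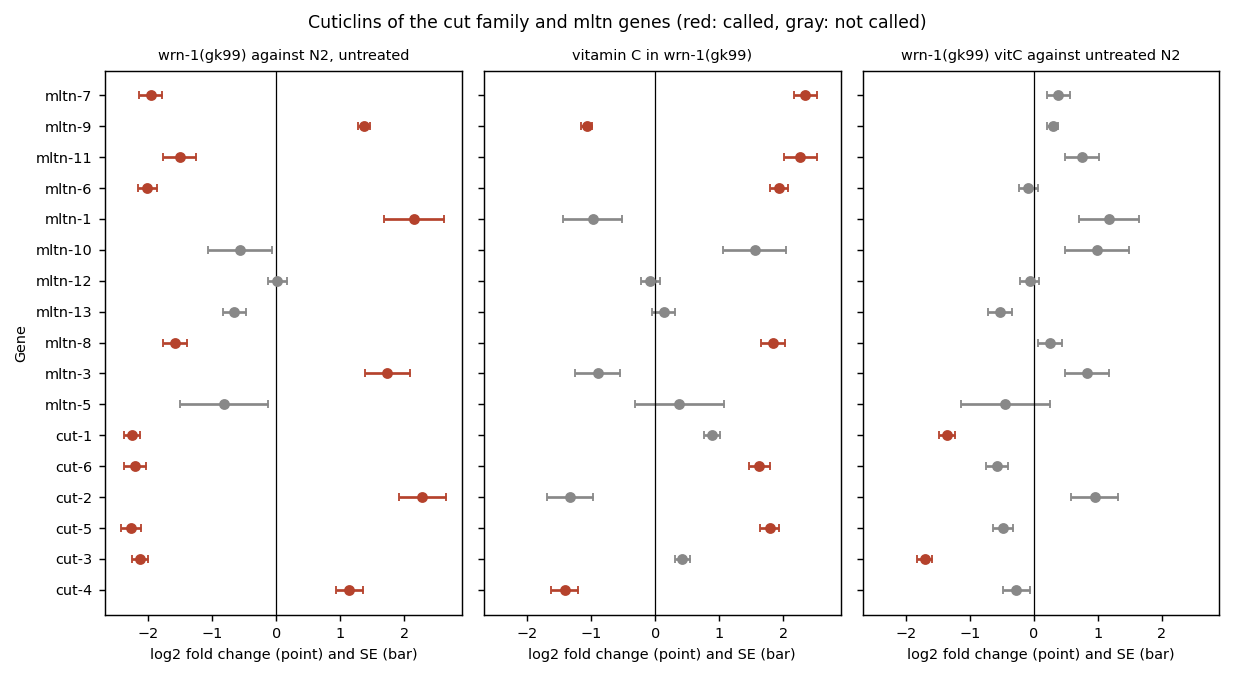
Log2 fold change (points) and SE (bars) from limma for the 11 mltn genes and 6 cut genes in 3 comparisons, red where called. cut-1, cut-3, cut-5 and cut-6 lie between -2.27 and -2.13 between untreated strains, cut-5 and cut-6 rise with vitamin C in wrn-1(gk99), and of these 17 genes the treated mutant differed from untreated N2 by a call in cut-1 and cut-3 alone in the fit of all libraries.

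The mltn genes encode proteins related to MLT-10, and 7 of the 11 were called between untreated strains, 4 below and 3 above N2. Of all genes tested, 6.57% were called lower and 4.24% higher there. mltn-6, mltn-7 and mltn-8 are neighbors on chromosome V and were all lower. mltn-7 had 592, 617 and 629 normalized counts in N2, 1372, 1387 and 838 in N2 vitC, 146, 167 and 157 in wrn-1(gk99) and 933, 651 and 841 in treated wrn-1(gk99). It decreased 3.92-fold in the untreated mutant (log2 -1.96, SE 0.18, limma adjusted p = 4.03e-06) and rose 5.17-fold with vitamin C there (log2 2.35, SE 0.18, adjusted p = 6.45e-06), to above all untreated N2 libraries. mltn-6 had 377, 489 and 371 in N2, 400, 429 and 413 in N2 vitC, 101, 82.6 and 121 in wrn-1(gk99) and 422, 361 and 377 in treated wrn-1(gk99). Untreated wrn-1(gk99) stood apart from the other 9 libraries, which overlapped, with a 4.06-fold decrease against N2 (log2 -2.02, SE 0.14, adjusted p = 5.63e-07) and a 3.81-fold increase with vitamin C (log2 1.93, SE 0.14, adjusted p = 5.6e-06). mltn-8 had 157, 138 and 144.99 in N2, 38.4, 60.7 and 47.7 in wrn-1(gk99) and 187, 165 and 173 in treated wrn-1(gk99). Its decrease against N2 was 3-fold (log2 -1.59, SE 0.19, adjusted p = 3.28e-05), and its increase with vitamin C in the mutant was 3.57-fold (log2 1.84, SE 0.19, adjusted p = 5.4e-05). The N2 mean of mltn-8 was just above the minimum level, and without N2 replicate 1 it was no longer called (log2 -1.54). Exons of 23 of the 55 genes overlap another annotated gene, among them mltn-7, mltn-8, cut-1, cut-3, cut-5 and fbn-1 on the opposite strand, and whether the counting used strand is not given in the sources used here.

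mltn-11, also on chromosome V, was called in both vitamin C comparisons. In the fit of all libraries no other of the 55 genes was, and without N2 vitC replicate 3 cut-2, cut-4, mlt-10, mltn-7 and mltn-10 were too. It had 204, 211 and 200 normalized counts in N2, 889, 868 and 363 in N2 vitC, 66.6, 72.9 and 74.6 in wrn-1(gk99) and 342, 343 and 355 in treated wrn-1(gk99). The increase with vitamin C was 4.86-fold in the mutant (log2 2.27, SE 0.26, limma adjusted p = 0.000108) and 3.44-fold in N2 (log2 1.67, SE 0.26, adjusted p = 0.000834). Without replicate 3 the increase in N2 was 4.28-fold (log2 2.09, SE 0.08, adjusted p = 5.02e-11), and with only the N2 libraries in the fit the adjusted p was 0.028. Between untreated strains it was 2.88-fold lower in the mutant (log2 -1.51, SE 0.26, adjusted p = 0.000462).

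mltn-9 and mltn-10 are adjacent on chromosome II and differed in pattern. mltn-9 had 375, 354 and 367 normalized counts in N2, 377, 389 and 454 in N2 vitC, 982, 963 and 887 in wrn-1(gk99) and 473, 413 and 460 in treated wrn-1(gk99). It was 2.58-fold higher in the untreated mutant (log2 1.37, SE 0.09, limma adjusted p = 2.99e-07) and decreased 2.1-fold with vitamin C there (log2 -1.07, SE 0.09, adjusted p = 1.16e-05). mltn-10 had 88.7, 105 and 114 in N2, 1098, 1097 and 204 in N2 vitC, 86.9, 65.6 and 55.7 in wrn-1(gk99) and 206, 180 and 223 in treated wrn-1(gk99). Its increase with vitamin C in N2 was 7.8-fold (log2 2.61, SE 0.50, adjusted p = 0.00289) and was 10.7-fold without replicate 3 (log2 3.42, SE 0.16, adjusted p = 2.96e-10). Leaving out any one of the other 5 N2 and N2 vitC libraries ended that call (log2 2.21 to 2.69, adjusted p 0.011 to 0.0151). In the mutant, the treated libraries were also all above the untreated ones, by log2 1.55 (SE 0.50, adjusted p = 0.0481), which was called without N2 vitC replicate 3 (SE 0.14, adjusted p = 4.82e-07) and with the mutant groups alone.

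mltn-1 and mltn-3 were lowest in N2 vitC replicates 1 and 2. mltn-1 had 141, 172 and 135 normalized counts in N2, 68.3, 63.2 and 330 in N2 vitC, 630, 700 and 662 in wrn-1(gk99) and 331, 349 and 331 in treated wrn-1(gk99). It rose 4.44-fold in the untreated mutant (log2 2.15, SE 0.46, limma adjusted p = 0.00196). mltn-3 had 69.9, 79.6 and 72.5 in N2, 30.6, 43.4 and 116 in N2 vitC, 249, 250 and 244 in wrn-1(gk99) and 150, 123 and 125 in treated wrn-1(gk99), a 3.35-fold increase between untreated strains (log2 1.73, SE 0.35, adjusted p = 0.00128). In both genes the treated mutant lay between untreated N2 and the untreated mutant, without overlap. mltn-5, picked after its values had been seen, stood at 32.2, 51.7 and 51.2 in N2, 271, 332 and 28.1 in N2 vitC, 19.2 to 27.8 in the untreated mutant and 27.7 to 37.3 in the treated one. Its increase in N2 was 6.69-fold without replicate 3 (log2 2.74, SE 0.23, adjusted p = 1.87e-07) and was not called by limma with it. mltn-12 and mltn-13 were called in no comparison under any alternative, with levels of 107 to 217 over all libraries.

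Of the 26 cutl genes, which encode cuticlin-like ZP domain proteins, 8 were called between untreated strains, with 2 higher and 6 lower in the mutant. The background was 4.24% higher and 6.57% lower. cutl-4 had 300, 337 and 340 normalized counts in N2, 142.5, 134 and 69.8 in N2 vitC, 85.2, 89.9 and 74.6 in wrn-1(gk99) and 68.5, 49.8 and 73.8 in treated wrn-1(gk99). Untreated N2 was above all other libraries, by 3.91-fold over the untreated mutant (log2 -1.96, SE 0.24, limma adjusted p = 3.72e-05) and by 5.08-fold over the treated mutant (log2 -2.34, SE 0.24, adjusted p = 2.98e-05). cutl-23 had 2219, 1996 and 2095 in N2, 893, 945 and 615 in N2 vitC, 727, 704 and 717 in wrn-1(gk99) and 627, 602 and 634 in treated wrn-1(gk99). It was 2.94-fold lower in the untreated mutant (log2 -1.55, SE 0.13, adjusted p = 1.83e-06) and 2.57-fold lower in N2 with vitamin C (log2 -1.39, SE 0.13, adjusted p = 2.39e-05), or 2.29-fold without replicate 3 (log2 -1.19, SE 0.06). cutl-14 had 801, 776 and 830 in N2, 304, 348 and 274 in N2 vitC, 326, 316 and 352 in wrn-1(gk99) and 243, 262 and 258 in treated wrn-1(gk99). Its decreases against untreated N2 were 2.42-fold in the untreated mutant (log2 -1.28, SE 0.09, adjusted p = 7.19e-07), 2.6-fold in N2 vitC (log2 -1.38, SE 0.09, adjusted p = 4.5e-06, and 2.46-fold without replicate 3) and 3.16-fold in the treated mutant (log2 -1.66, SE 0.09, adjusted p = 1.35e-06). These 3 genes, like cut-1 and cut-3, had their highest values in the 3 untreated N2 libraries.

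cutl-4 fell 2.82-fold with vitamin C in N2 (log2 -1.55, SE 0.24, limma adjusted p = 0.00078), a call held without replicate 3 (2.36-fold, log2 -1.23) but not with only the N2 libraries in the fit (adjusted p = 0.019). cutl-16 went the other way from cutl-4 between strains. It had 56.4, 50.4 and 66.1 in N2, 139, 109 and 90.2 in N2 vitC, 159, 149 and 138 in wrn-1(gk99) and 92.3, 108 and 95.8 in treated wrn-1(gk99). Its 2.58-fold increase in the untreated mutant (log2 1.36, SE 0.16, adjusted p = 3.39e-05) was not called without wrn-1(gk99) replicate 1 (log2 1.31), when no group mean passed the minimum level. The other cutl genes called between untreated strains were cutl-10, higher by log2 1.28 (SE 0.27), and cutl-18, cutl-21 and cutl-17, lower by log2 -1.50 (SE 0.35), -1.35 (SE 0.19) and -1.08 (SE 0.18). cutl-28 and cutl-29, also picked after their values had been seen, had 1915, 1930 and 546 and 281, 263 and 84.3 in N2 vitC, beside 472 to 520 and 91.7 to 109 in N2, and were called there by limma without replicate 3 (3.86-fold, log2 1.95, SE 0.07 and 2.64-fold, log2 1.40, SE 0.11). With it, edgeR and DESeq2 called cutl-28, and limma called neither in the fit of all libraries at the deposited scale. Of the 17 cutl genes called in no comparison in the fit of all libraries, with means of 15.9 to 715 normalized counts, cutl-9 and cutl-1 passed the fold and the adjusted p between untreated strains (log2 1.55 and -1.18) but not the minimum level.

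**Figure D5:**
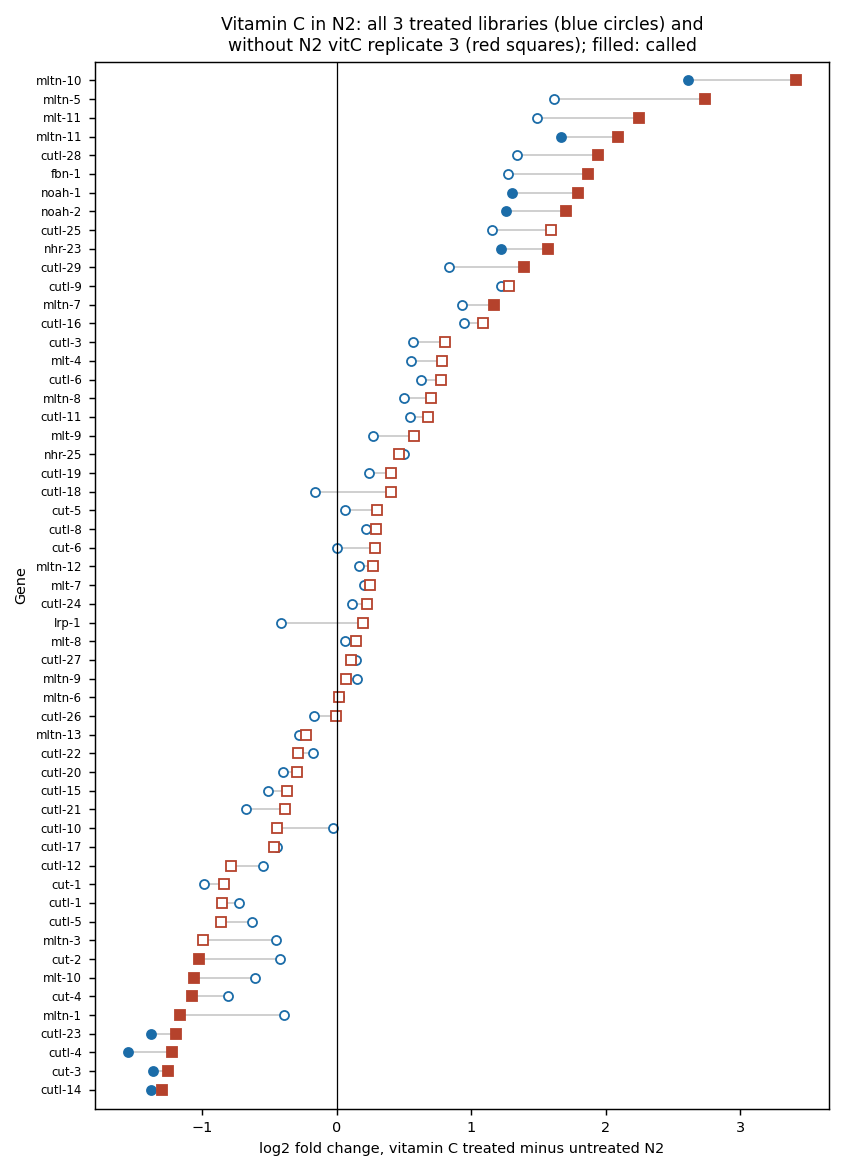
Log2 fold change with vitamin C in N2 for all 55 genes, from all 3 treated libraries (blue circles) and without N2 vitC replicate 3 (red squares), filled where called. mltn-10 moves from 2.61 to 3.42 and mltn-1 from -0.40 to -1.17, and the filled symbols number 9 for circles and 19 for squares.

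Against untreated N2, vitamin C treated wrn-1(gk99) had 6 of the 55 genes called, where the background was 3.7% (1.02% higher and 2.68% lower). All 6 were lower: cut-1, cut-3, cutl-4, cutl-14, cutl-21 and cutl-23. The groups did not overlap for 36 of the 55 genes (63.6% of all genes tested), and the median log2 fold change was -0.03 over the 55 genes and 0.01 over all genes tested. Without N2 vitC replicate 3 in the fit, 9 were called beside a background of 4.17% (1.32% and 2.86%), adding lrp-1 and cutl-18 on the lower side and mltn-1 on the higher side (2.25-fold, log2 1.17, SE 0.09, limma adjusted p = 5.12e-08).

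Between the strains when both had vitamin C, limma called 0 of the 55 genes and 0.0% of all genes tested. An unadjusted limma p under 0.05 was found for 32 of the 55 genes and for 6016 of the 14352 genes tested. On the recovered reads DESeq2 called 5, all lower in the mutant, beside 1.09% of all genes tested, and edgeR called 0. The groups did not overlap for 8 genes (16.3% of all genes tested). Without N2 vitC replicate 3, 15 were called, 3 higher and 12 lower in the mutant, where 6.81% of all genes tested were called (3.49% higher and 3.32% lower). Those lower included mltn-5 (9.32-fold, log2 -3.18, SE 0.23, limma adjusted p = 2.5e-08), mltn-10 (5.41-fold, log2 -2.43, SE 0.16, adjusted p = 7.28e-09) and mlt-11 (4.38-fold, log2 -2.22, SE 0.22, adjusted p = 7.16e-07). noah-1, noah-2, fbn-1, nhr-23 and lrp-1 were 2.1-fold to 3.35-fold lower. Higher were mltn-1 (5.13-fold, log2 2.34, SE 0.10), cut-2 (3.95-fold, log2 1.98, SE 0.08) and mlt-10 (2.6-fold, log2 1.38, SE 0.07).

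The difference between the vitamin C effects of the strains was tested as an interaction, with a call at a log2 difference of at least 1. It was called for 14 of the 55 genes, where 6.14% of all genes tested were called (4.02% higher and 2.12% lower). The vitamin C effect was more positive in wrn-1(gk99) for 10, among them mltn-6, cut-1, cut-3, cut-5 and cut-6, and more negative for 4, namely nhr-23, cutl-16, nhr-25 and mltn-9. For cut-1 the effect was log2 0.89 in the mutant and -0.99 in N2, a difference of 1.88 (SE 0.18, limma adjusted p = 1.87e-05), or 1.73 without N2 vitC replicate 3. For nhr-25 it was -0.76 and 0.50, a difference of -1.25 (SE 0.11, adjusted p = 1.37e-05), or -1.22 without that library. Without N2 vitC replicate 3, 21 were called beside a background of 7.85%, 8 more positive and 13 more negative (background 4.41% and 3.44%). The added ones included noah-1 (-2.13, SE 0.11), noah-2 (-1.93, SE 0.09), fbn-1 (-2.89, SE 0.26) and mlt-11 (-2.91, SE 0.30). With the libraries scaled to equal totals the split of 10 and 4 became 8 and 8, and that over all genes tested moved alike, to 3.27% and 2.89%.

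Other genes of the molting pathway were read from lists of known roles, whose counts between untreated strains stand beside the background of 10.8%, so that 1 call among a list of 5 or 13 genes says nothing of the list. Of 8 regulators of molting and larval timing, 3 were called between untreated strains. bed-3, a zinc finger factor needed for molting, was 3-fold lower in wrn-1(gk99) (log2 -1.58, SE 0.10, limma adjusted p = 2.79e-07) and 2.45-fold lower with vitamin C in N2 (log2 -1.31, SE 0.10), or 2.23-fold without replicate 3. Of the others, blmp-1, a factor that sets the timing of larval programs, was 2.15-fold lower (log2 -1.10, SE 0.21), and the nuclear receptor nhr-85 was 2.22-fold higher (log2 1.15, SE 0.25). Of 13 genes of ecdysis signaling and trafficking 1 was called, the patched-related ptr-18, 2.21-fold lower (log2 -1.15, SE 0.15). Of 5 cuticle proteases and inhibitors, nas-37, an astacin protease that opens the old cuticle, was 2.03-fold higher (log2 1.02, SE 0.07), and its relative nas-36 fell 2.13-fold with vitamin C in the mutant (log2 -1.09, SE 0.12).

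The 3 genes listed for cuticle cross-linking through dityrosine were all lower in the untreated mutant. The peroxidase gene mlt-7, described above, is not in that list and went the other way without a call (group means of 1266 in N2 and 1994 in untreated wrn-1(gk99)). tsp-15, a tetraspanin, was 3.59-fold lower (log2 -1.84, SE 0.07, limma adjusted p = 8.16e-09), the maturation factor doxa-1 was 3.03-fold lower (log2 -1.60, SE 0.08) and bli-3, the dual oxidase itself, was 2.62-fold lower (log2 -1.39, SE 0.08). The summed level of the 3 was 18075 to 18975 normalized counts in N2 and 6158 to 6712 in the untreated mutant, and 9607 to 11164 in the treated mutant, where tsp-15 and doxa-1 were called against untreated N2. In N2 vitC it was 10003 to 10726, and doxa-1 was called 2.23-fold lower there (log2 -1.16, SE 0.08), or 2.1-fold without replicate 3. All 3 genes were called in the interaction, with a vitamin C effect more positive in the mutant (log2 1.63 for tsp-15, 1.44 for doxa-1 and 1.44 for bli-3), and also without N2 vitC replicate 3. Of 9 other apical matrix genes, dex-1 and ram-5 were lower in the untreated mutant (log2 -1.87, SE 0.26 and -1.67, SE 0.21) and let-653 was higher (log2 1.00, SE 0.27). let-653, let-4 and lpr-1 rose with vitamin C in N2 (log2 1.48 with SE 0.27, 1.42 with SE 0.30 and 1.13 with SE 0.21), where 1.16% of all genes tested were called higher. Without replicate 3 the count was 6 of 9, where the background was 2.59%. Of 15 collagens of the furrows and the epidermis, 5 were higher in the untreated mutant, led by dpy-13, dpy-5 and rol-6 (3.85-fold, 3.57-fold and 3.52-fold), beside a background of 4.24%. Another 5 were higher with vitamin C in N2, led by dpy-3, dpy-8 and dpy-2 (2.53-fold, 2.26-fold and 2.11-fold), beside 1.16%. Leaving out N2 vitC replicate 3, vitamin C in N2 gave 6 collagens higher, led by dpy-3 (3.13-fold), beside a background of 2.59%. It gave 3 lower, namely dpy-5, sqt-1 and dpy-13 (2.18-fold, 2.16-fold and 2.04-fold), beside 2.01%. In that fit vitamin C in the mutant gave the same 3 lower (2.04-fold, 2.01-fold and 2.32-fold), beside 0.996%. The counts of these lists were not read in the fit of only the N2 libraries.

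Tissue markers were read beside these changes. The summed level of 9 epidermis markers was 33986 to 36530 normalized counts in N2, 29878 to 33215 in wrn-1(gk99), 28306 to 54093 in N2 vitC and 23613 to 36796 in treated wrn-1(gk99), with no marker at 0. vab-10 alone had 16002 to 18288 in N2 and 17727 to 20551 in wrn-1(gk99). The sum of the other epidermis markers was lower in untreated wrn-1(gk99) than in N2. Of the epidermis markers, elt-1 was called with vitamin C in N2, at log2 0.99 and at 1.38 without replicate 3. The summed levels of 7 intestine, 6 pharynx and 9 germ line markers were higher in untreated wrn-1(gk99) than in N2, with 36774 to 37709 against 20069 to 20931, 12594 to 13496 against 5747 to 6005 and 19069 to 19506 against 12697 to 13111. Most of the pharynx sum came from myo-1 (4543 to 5071 against 1412 to 1477) and myo-2 (4844 to 5269 against 1600 to 1829). tnt-4 and tni-4 were also higher in the mutant, while the rest of that sum, pha-4 and ceh-22 together, was lower. Markers of body wall muscle totalled 270906 to 294668 in N2 and 237380 to 253344 in wrn-1(gk99), with hlh-1 listed at 0 in all libraries, and those of neurons 21686 to 22363 and 16209 to 16703. The 17 sperm markers summed to at most 291 normalized counts in any library, with 1 to 6 of them at 0 in a group, and the 6 yolk markers to at most 76.8. The part of these differences in the changes of the molting genes was not tested.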

How the data were processed

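Total RNA of 12 libraries (4 groups of 3), prepared with a TruSeq kit, had been sequenced on a HiSeq machine in paired ends. The authors aligned the reads with TopHat to the ce10 genome with Ensembl annotations, counted reads per gene with HTSeq and divided the counts by DESeq size factors, and deposited these normalized counts, which are a signal and not raw counts. Versions of those tools, the strand setting and the counting mode are not given in the sources used here. Steps of whole reads were recovered from the deposited values, with 100% of nonzero values whole within a tolerance of 0.01, and these reads served the count tests run as alternatives. All value columns matched a sample.

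Genes with a mean of at least 10 (14352 of 45327 listed, of which 21321 had a nonzero value) were fitted with limma 3.58.1 (R 4.3.3, lmFit and eBayes with trend) on log2(value + 1) in 4 groups. Fold changes from log2 values with this pseudocount understate the change of low genes, and ratios quoted as folds are ratios of group means. Tests were two-sided, with Benjamini-Hochberg adjustment over all genes tested. The fit was tested on simulated data, with the same spread setting for every gene and no library apart from its group. That test therefore does not cover a library such as N2 vitC replicate 3. Replicates differed by 1.36 to 98.8 chi-square units per gene, where counting error alone gives about 1. The lowest values were 1.36 for wrn-1(gk99) replicates 1 and 2 and 1.70 for N2 replicates 1 and 2. These pairs thus differed little beyond counting error, and SEs that rest on them may understate the spread between worm populations. All libraries were kept as separate replicates, and whether they came from separate worms was not tested. An exact permutation test of 3 against 3 cannot go below p = 0.1 and was not used.

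Among members called without overlap of the groups, up to 4 at either end of the ratios were named per comparison, and, whatever their values, nhr-23, nhr-25, lrp-1, the noah genes, fbn-1, mlt-7 to mlt-11 and cut-1 to cut-6, with at most 3 genes for each other list. Genes named outside this rule are marked as picked after their values had been seen, and mlt-4, mltn-12, mltn-13, the other cutl genes called and the genes just under a limit were also chosen that way. So were the genes beyond 3 in the lists of collagens, other apical matrix genes and pharynx markers. The members and lists were chosen with earlier results of these data known. Exon lengths, overlaps and neighboring genes came from the coordinates of the WBcel235 annotation. Genes were matched to it by sequence name or symbol, for 14201 of the genes tested and for all 55 members. myrf-1, myrf-2, elt-5 and opt-2 were not found as symbols in the table.

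Alternatives were another pseudocount, other minimum levels, an adjusted p under 0.05, equal upper quartiles, equal totals, the compared groups alone, eBayes without trend, a replicate block, leaving out each library, and 2 count tests of the recovered reads, namely edgeR 4.0.16 (quasi-likelihood) and DESeq2 1.42.0. The fits of comparisons that do not use N2 vitC were also run without N2 vitC replicate 3, an alternative chosen after seeing the data.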

Additional observations from a re-analysis of the deposited data

Results flagged for a closer look

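For 14 of the 55 genes the vitamin C effect differed between the strains by the limma interaction test, given as the log2 effect in wrn-1(gk99) minus that in N2. The difference was 1.92 for mltn-6, 1.88 for cut-1, 1.79 for cut-3, 1.73 for cut-5 and 1.63 for cut-6. It was 1.42 for mltn-7, 1.34 for mltn-8, 1.18 for cutl-23, 1.15 for cutl-5 and 1.0 for cutl-14. It was -1.73 for nhr-23, -1.53 for cutl-16, -1.25 for nhr-25 and -1.22 for mltn-9. cutl-5, which stands here only because of this test, had SE 0.26 and an adjusted p of 0.00662. Without N2 vitC replicate 3, cutl-14 and cutl-23 were under the limit of 1 (log2 0.92 and 0.99), and the other 12 genes were also called, at 1.14 to 1.91 and at -2.07 to -1.14.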

How the results depend on the processing

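Of 1143 recomputed log2 fold changes of the 55 called results of named members, 1091 stayed called in the same direction, 52 were no longer called and 0 reversed, and 42 of the 55 stayed called under every alternative run. The alternatives with an adjusted p under 0.05 and with no minimum group mean loosen the rule for the same fit and cannot lose a call. Named members were partly chosen as called genes with the most extreme ratios, so these counts do not describe all called members. With vitamin C in N2 the count of 9 was 3 with the compared groups alone, and between the strains with vitamin C the count of 0 was 5 with DESeq2. With 1 library left out, the counts ran from 21 to 25 between untreated strains, 8 to 11 with vitamin C in wrn-1(gk99), 6 to 19 with vitamin C in N2, 6 to 9 for the treated mutant against untreated N2, 0 to 15 between the treated strains and 11 to 21 for the interaction, and the highest value of each was that without N2 vitC replicate 3. mltn-8 lost its interaction call under 4 alternatives (log2 1.29 to 1.35) and its strain call with equal totals (log2 -1.42) as well as without N2 replicate 1, cutl-14 lost its interaction call under 9 (0.92 to 0.99) and cutl-16 its own under 1 (-1.48). A further 51 calls of members were made under at least 1 alternative and not in the fit of all libraries, 19 of them under no alternative but that without N2 vitC replicate 3. Same-numbered libraries of different groups correlated in their deviations at r = -0.08 to 0.17, over 0.1 in 5 of 18 pairs, so the numbers were not read as a pairing. With the replicate block the counts were 24, 9, 9, 7, 0 and 14 in the order above, against 23, 9, 9, 6, 0 and 14, and the block added lrp-1 for both mutant groups against untreated N2 (log2 -1.05 and -1.22). Genes of few reads and values that rest on 3 libraries limit the precision, the depth of each library covers counting error only, and the cause of each lost call was not tested.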
